A study of Homo sapiens with 32 samples.

Results

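TCam-2 cells transcribed 112 genes that left at most 4 counts over all 16 NTera2 libraries together. TCam-2 is a cell line derived from a seminoma and NTera2 a cell line derived from an embryonal carcinoma, both of them human germ cell cancers. A gene was taken if its mean over the 16 TCam-2 libraries was at least 1 CPM (the gene's count scaled to a common library total of 1000000) and its NTera2 counts summed to 4 or fewer. Genes without a symbol, pseudogenes by name, genes of the Y chromosome and several germ cell and matrix families (TCL1A, SOX17, IGF1, PRAME, and names starting with MAGE, GAGE, XAGE, PAGE, SSX, COL, LAM or ITG) were left out, which removed 5 genes that met both thresholds. Of the 61541 genes in the table, 12802 passed the TCam-2 threshold, and the 112 were 0.875% of them. Because these genes were chosen by their counts in both lines, the difference between the lines is given as a description, with no test.

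The cells of each line had received denosumab, OPG, RANKL or vehicle (D-PBS) for 48 h, in 4 independent experiments per group, so that 8 groups of 4 libraries made 32 in all. The 4 TCam-2 experiments used passages 118, 120, 121 and 122, and the 4 NTera2 experiments passages 27, 29, 30 and 31. RANKL activates the receptor RANK; OPG, a decoy receptor, and denosumab, an antibody, block RANKL. RANKL and OPG were given at 1 µg/ml; the titles name denosumab, but the treatment protocol has RANKL a second time where it would stand. Each line is a single established culture, NTera2 and TCam-2 grown in different media, so line and medium cannot be told apart.

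Seminoma cells resemble primordial germ cells, the founders of sperm and eggs, and embryonal carcinoma cells resemble the pluripotent cells of the early embryo. Homeobox genes encode DNA-binding proteins that lay out body regions, and their HOX members sit side by side in 4 clusters. Clade B serpins (SERPINB genes) encode intracellular inhibitors of proteases, and a row of them lies on the long arm of chromosome 18. Neighbouring genes of such clusters often share regulatory DNA.

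The identity of the lines was checked on genes outside the set. SOX2, a marker of embryonal carcinoma, averaged 2.31 CPM in TCam-2 and 288 CPM in NTera2. TFAP2C and PRDM1, markers of seminoma and of primordial germ cells, averaged 1329 and 71.8 CPM in TCam-2, against 21.8 and 1.46 CPM in NTera2. Total counts lay between 10585247 and 20257935 in TCam-2 libraries and between 11385500 and 30499538 in NTera2 libraries. A count of 0 over the 16 NTera2 libraries allows a level of up to 0.0121 CPM in their summed counts (3 counts), and 4 counts are 0.0161 CPM, which covers counting error only. The RNA integrity number was low in TCam-2 RANKL replicate 2 (6.1) and replicate 4 (3.7). NTera2 denosumab replicate 3 stood apart: it held 34 of the 163 counts that the 112 genes left in NTera2, or 2.53 CPM in sum, against 0.199 to 1.06 CPM in the other 15 NTera2 libraries. It also held 17 counts of PRAME, 13 of IGF1 and 4 of SOX17, which are abundant in TCam-2. NTera2 RANKL replicate 1, the deepest library, held 11 counts of PRAME, 21 of IGF1 and 1 of SOX17, but 7 of the 112 genes (0.230 CPM). The part of RNA from the other line in these counts was not tested. Without NTera2 denosumab replicate 3, 116 genes met the rule, and 113 to 119 met it when 1 of the other 15 was left out.

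The promoters of SERPINB3 and SERPINB4 (hg38 chromosome 18, 63661844 to 63662143 and 63644207 to 63644506, minus strand) show how alike this pair of neighbours is; each window spans the gene's start in RefSeq GRCh38.p14. Capitals mark the 4 positions that differ without gaps among 300 bases, which are G126A, G201A, C228T and T260C, counted from 1 at the 5′ end and with the base of SERPINB3 first.
SERPINB3: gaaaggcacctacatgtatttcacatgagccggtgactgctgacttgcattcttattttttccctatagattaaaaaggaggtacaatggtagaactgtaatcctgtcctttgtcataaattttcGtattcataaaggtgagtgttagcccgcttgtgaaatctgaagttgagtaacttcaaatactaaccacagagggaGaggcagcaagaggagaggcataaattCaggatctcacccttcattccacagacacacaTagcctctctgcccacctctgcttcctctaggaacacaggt
SERPINB4: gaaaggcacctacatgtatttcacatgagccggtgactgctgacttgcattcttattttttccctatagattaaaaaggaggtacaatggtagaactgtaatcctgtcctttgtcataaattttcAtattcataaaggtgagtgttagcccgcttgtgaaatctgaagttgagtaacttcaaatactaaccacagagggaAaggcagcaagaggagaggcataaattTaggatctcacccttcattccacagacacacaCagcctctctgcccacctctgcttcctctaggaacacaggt
The matching windows of a HOX gene, a caudal homeobox gene and a germ cell enzyme gene are shown beside them, with every CG dinucleotide in capitals, since CG-poor and CG-rich promoters both occur in the set. They lie on the minus strand at chromosome 7, 27165488 to 27165787 (HOXA9), chromosome 13, 27969266 to 27969565 (CDX2) and chromosome 16, 67980450 to 67980749 (DPEP3).
HOXA9: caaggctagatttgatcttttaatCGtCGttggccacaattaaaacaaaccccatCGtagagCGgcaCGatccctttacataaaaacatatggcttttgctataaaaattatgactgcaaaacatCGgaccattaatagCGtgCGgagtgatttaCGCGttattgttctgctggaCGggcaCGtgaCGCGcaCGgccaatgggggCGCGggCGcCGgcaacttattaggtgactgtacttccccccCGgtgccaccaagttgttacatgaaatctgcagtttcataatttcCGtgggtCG
CDX2: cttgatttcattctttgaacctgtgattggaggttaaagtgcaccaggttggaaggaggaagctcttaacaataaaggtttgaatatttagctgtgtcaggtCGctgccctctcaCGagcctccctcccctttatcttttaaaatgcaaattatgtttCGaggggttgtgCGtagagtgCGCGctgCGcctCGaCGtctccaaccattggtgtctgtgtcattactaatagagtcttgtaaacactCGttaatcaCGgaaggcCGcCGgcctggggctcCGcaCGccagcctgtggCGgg
DPEP3: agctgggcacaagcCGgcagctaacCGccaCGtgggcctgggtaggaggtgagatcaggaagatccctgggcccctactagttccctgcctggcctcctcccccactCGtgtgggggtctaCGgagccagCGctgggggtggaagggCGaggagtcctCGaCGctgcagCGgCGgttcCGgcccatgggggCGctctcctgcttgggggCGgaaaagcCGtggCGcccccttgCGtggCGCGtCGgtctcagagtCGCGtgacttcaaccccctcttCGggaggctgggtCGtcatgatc
A CG reads the same on both strands. These windows held 22 (HOXA9), 16 (CDX2) and 24 (DPEP3) of them, against 3 in SERPINB3 and 2 in SERPINB4. Of 13670 windows of the same length matched to the table, expressed or not, 24.6% held at most 5, and their median was 21. Among the 7245 windows of other genes past the TCam-2 threshold, 3.69% held at most 5, and the median was 28. Only 54 of the 112 genes had a window, too few for a check of CG content over the set, which is void.
MIR200CHG, one of the genes, is by its name the host transcript of MIR200C and MIR141 on chromosome 12. The mature RNAs that RefSeq GRCh38.p14 lists there for the 3′ arms are shown with the seed, bases 2 to 8, in capitals; the libraries measured polyadenylated RNA and not these small RNAs.
hsa-miR-200c-3p: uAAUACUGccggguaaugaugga
hsa-miR-141-3p: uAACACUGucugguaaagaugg

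Most of the genes had few counts in TCam-2. Their mean levels ran from 1.01 to 72.8 CPM with a median of 2.93 CPM, and the median of all 12802 genes past the TCam-2 threshold was 26.4 CPM. These medians are not per length, and the median table length was 3376.5 bases for the 112 and 5396.5 bases for the 12802 genes. By mean level, 33 genes lay between 1 and 2 CPM, 44 between 2 and 5, 17 between 5 and 10, and 18 at 10 CPM or above. All but FAM230C, which had counts in 15, were counted in all 16 TCam-2 libraries. Together the 112 genes took 168119 counts in TCam-2 and 163 in NTera2. In NTera2, 39 genes had no count, 25 had 1, 22 had 2, 10 had 3 and 16 had 4. Together the genes took between 0.0646% and 0.0708% of the counts of a TCam-2 library, so their sum varied little between libraries. The abundant genes weigh most in that sum, and EID1 alone held 17620 of the 168119 counts. Single genes differed in spread, from CAT (19.4 to 24.3 CPM) to genes such as DSCR4 (0.183 to 2.93 CPM). Genes that GENCODE 29 lists as long non-coding RNA made up 30 of the 112 (26.8%), against 4.01% of the 12802 genes, and protein-coding genes made up 80 (71.4%), against 95.7%. The 12802 genes were not matched to the 112 on level, and the part of level in these shares was not tested.

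**Figure D1:**
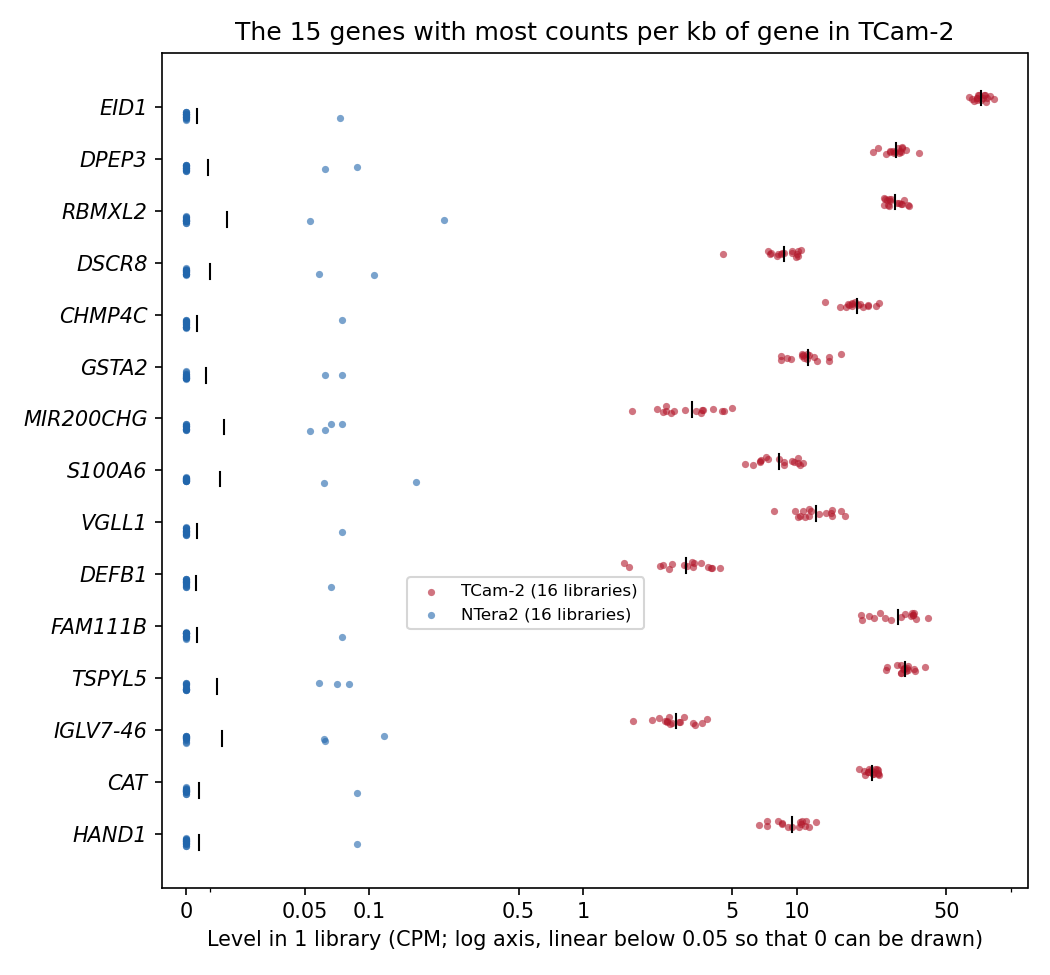
Level of the 15 genes with the most counts per kb of gene length in TCam-2, in CPM on a log axis that is linear below 0.05. Each point is 1 library, red for the 16 TCam-2 libraries and blue for the 16 NTera2 libraries, and black bars are means. The TCam-2 points of EID1 lie between 63.6 and 83.7 CPM, and its NTera2 points lie at 0 except for 1 library with 1 count.

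The genes were put in order of level by CPM per kb of the gene length in the deposited table. EID1 (ENSG00000255302, hg38 chromosome 15, 48878134 to 48878785), an inhibitor of the acetyltransferase EP300, stood highest at 35.7 CPM per kb. It had 63.6 CPM in its lowest, 72.2 CPM at the median and 83.7 CPM in its highest TCam-2 library, or 17620 counts in all, against 1 count over NTera2. The table gives EID1 a length of 2040 bases but a span that is shorter, so its place in the per-kb order depends on that length. Of the 4 genes nearest to it, 3 were expressed in both lines, and SHC4, which overlaps it on the other strand, averaged 0.274 CPM in TCam-2 and 0.168 CPM in NTera2. CEP152 averaged 43.9 CPM in TCam-2 and 25.8 CPM in NTera2, SECISBP2L 39.5 CPM in TCam-2 and 25.6 CPM in NTera2, and COPS2 42.1 CPM in TCam-2 and 48.3 CPM in NTera2. DPEP3, a membrane dipeptidase of testis, followed at 16.7 CPM per kb and RBMXL2, an RNA-binding protein of male germ cells, at 13.3 CPM per kb. Their ranges over the TCam-2 libraries were 22.8 to 37.4 CPM and 25.7 to 33.5 CPM, which overlap. The rest of the 15 highest were, in order, DSCR8, CHMP4C, GSTA2, MIR200CHG, S100A6, VGLL1, DEFB1, FAM111B, TSPYL5, IGLV7-46, CAT and HAND1, from 10.5 down to 5.59 CPM per kb.

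Homeobox and paired box genes, taken by these words in the gene name, were 18 of the 112 (16.1%), against 98 of the 12802 genes past the TCam-2 threshold (0.766%). Put the other way, 18.4% of the homeobox and paired box genes expressed in TCam-2 were members, against 0.875% of all genes. Under the mirrored thresholds, 169 genes had at least 1 CPM in NTera2 and at most 4 counts over TCam-2, and 5 of these (2.96%) were homeobox or paired box genes. They were 5.88% of the 85 such genes expressed in NTera2, against 1.24% of all 13622 genes expressed there. Both sets thus held more of them than their backgrounds. The backgrounds were not matched on level: the median of the 12802 genes was 26.4 CPM. The part of level in these shares was not tested. The 18 averaged 1.06 to 11.8 CPM in TCam-2, with a median of 2.71 CPM, and 9 of them had no count in NTera2. Of the 18, 7 lie on chromosome 7. By other words in the gene name, metabolic enzymes were 4.46% of the members, against 9.77% of the 12802 genes, and zinc finger proteins 2.68%, against 5.84%. The words for metabolic enzymes miss some of them, such as CAT, PON3 and G6PC1 among the members, so that share depends on the naming.

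HOX genes specify position along the body axis. Members among them included HOXA4, HOXA9, HOXA13, HOXC6, HOXC9 and HOXC12. HOXA9 had 1.40, 2.09 and 3.65 CPM in its lowest, median and highest TCam-2 library and no count in NTera2, as had HOXA4, HOXC6, HOXC9 and HOXC12. HOXA13 had 1.05 to 2.64 CPM in TCam-2 and 2 counts over NTera2. EVX1, an even-skipped homeobox gene next to the HOXA cluster, ranged from 8.62 to 14.1 CPM, against 4 counts.

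ParaHox genes are relatives of the HOX genes. CDX1 and CDX2, caudal factors of the hindgut and, for CDX2, of trophoblast, ranged from 3.66 to 7.31 CPM and from 1.92 to 5.98 CPM in TCam-2, against 1 and 2 counts over NTera2. PDX1, a pancreatic regulator and the neighbour of CDX2, ranged from 0.702 to 2.11 CPM and had no count in NTera2. Of the other ParaHox genes, GSX1 and CDX4 were under 1 CPM in both lines, with 9 and 27 counts over TCam-2 against 1 and 173 over NTera2, and GSX2 had no count in TCam-2.

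The remaining homeobox and paired box members are regulators of nervous system, endoderm and placenta. TLX3, which directs sensory neurons, ranged from 3.20 to 12.2 CPM, EN2 (midbrain and cerebellum) from 5.47 to 9.51 CPM, and neither was counted in NTera2. VAX1 (ventral forebrain and eye) ranged from 4.03 to 7.69 CPM, and MNX1 (motor neurons and pancreas) from 2.39 to 4.28 CPM. NKX2-1 (lung and thyroid) ranged from 1.02 to 3.66 CPM, PAX9 (pharyngeal pouches and teeth) from 0.408 to 2.30 CPM and ESX1, an X-linked gene of placenta and testis, from 0.958 to 3.32 CPM.

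**Figure D2:**
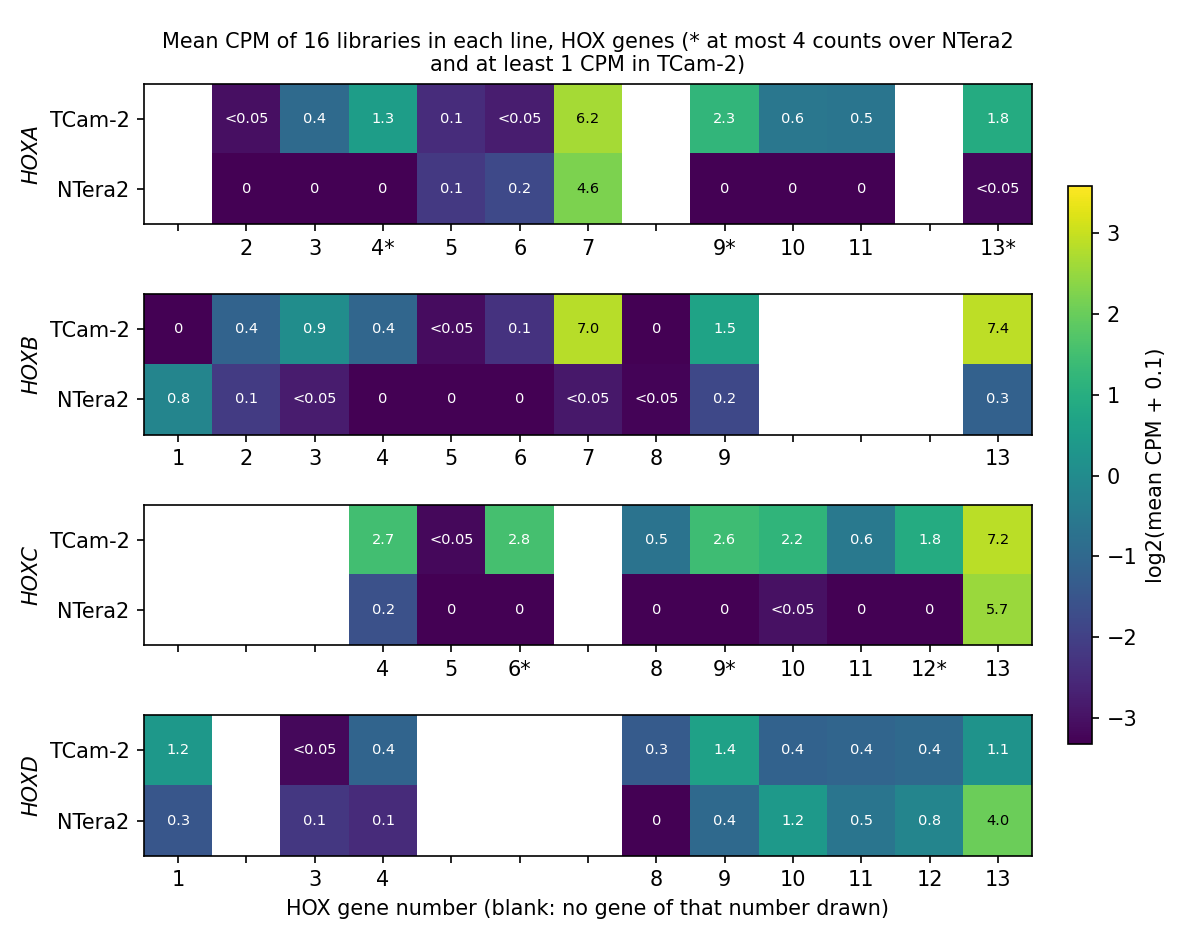
Mean CPM over the 16 libraries of each line for the HOX genes, by cluster, with TCam-2 above NTera2 and colour on a log2(mean CPM + 0.1) scale. Stars mark members; HOXA7 and HOXC13, inside or beside runs of members, were expressed in both lines.

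Members were spread unevenly over the HOX clusters, counted over 39 symbols in 40 rows. All of them lay in HOXA and HOXC, and HOXB and HOXD held 0. Only 3 genes of HOXB and 3 of HOXD reached 1 CPM in TCam-2, so these zeros rest on few genes. Within HOXA, 1 gene reached 1 CPM in NTera2: HOXA7 averaged 6.19 CPM in TCam-2 and 4.55 CPM in NTera2, although HOXA9 next to it had no NTera2 count. In the same way HOXC13 averaged 7.22 CPM in TCam-2 and 5.73 CPM in NTera2, beside HOXC12 with 0 counts in NTera2. HOXB7 averaged 7.03 CPM in TCam-2 and missed the NTera2 limit with 9 counts, and HOXB13 averaged 7.42 CPM in TCam-2 and 0.342 CPM in NTera2. HOXD13 and HOXD10 were higher in NTera2 by mean level, at 1.06 CPM in TCam-2 against 4.03 CPM in NTera2 and 0.353 CPM against 1.20 CPM.

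Members were called neighbours where no gene of at least 1 CPM in NTera2 lay between them and the gap was at most 500 kb. This gave 4 runs of 3 or more and 6 pairs, holding 25 of the 112 genes. The longest ran through HOXA9, HOXA13, EVX1-AS and EVX1 (hg38 chromosome 7, 27162438 to 27250493). Another held HOXC12, HOXC6 and HOXC9 (chromosome 12, 53954903 to 54030823). HOTAIR, HOXC11, HOXC-AS3 and HOXC8 in this stretch also had 0 counts over NTera2 but averaged 0.683, 0.587, 0.262 and 0.515 CPM in TCam-2. HOXC10, at 2.18 CPM in TCam-2, missed the limit with 10 NTera2 counts, and HOXC4, at 2.74 CPM, with 55. Asking that no other gene at all lie between members left 1 run and 4 pairs.

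The SERPINB genes made a further run. SERPINB12, SERPINB4 and SERPINB3 lie on chromosome 18 between 63542369 and 63661893. SERPINB3 and SERPINB4 encode the squamous cell carcinoma antigens, inhibitors of cysteine and serine proteases, and SERPINB12 an inhibitor of trypsin-like proteases. SERPINB4 (ENSG00000206073) had 2.07, 3.54 and 7.0 CPM in its lowest, median and highest TCam-2 library and 1017 counts in all, against 2 over NTera2. SERPINB3 (ENSG00000057149) had 1.19, 3.4 and 5.53 CPM and 886 counts, against 1. SERPINB12 (ENSG00000166634) had 0.371, 1.22 and 2.49 CPM and 343 counts, against 0. Per kb, SERPINB3 and SERPINB4 stood at 2.08 and 2.06 CPM and SERPINB12 at 0.331 CPM.

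Among their neighbours on the chromosome, none met the rule. SERPINB13, between SERPINB12 and SERPINB4, had no count in either line, and nor had SERPINB2 and SERPINB10 farther along the row. SERPINB11, which overlaps SERPINB3 on the other strand, had 1 count over TCam-2 and 0 over NTera2, and SERPINB7 had 0 and 1. SERPINB5, the maspin gene, had 37 counts over TCam-2 and 5 over NTera2. SERPINB8, at the far end of the row, averaged 2.15 CPM in TCam-2 and 0.682 CPM in NTera2. On the other side, KDSR averaged 13.6 CPM in TCam-2 and 15.6 CPM in NTera2, and VPS4B 40.4 CPM in TCam-2 and 25.8 CPM in NTera2. The SERPINB genes of chromosome 6 were expressed in both lines. SERPINB9, the granzyme B inhibitor, averaged 529 CPM in TCam-2 and 131 CPM in NTera2, SERPINB1 16.8 CPM in TCam-2 and 9.29 CPM in NTera2, and SERPINB6 13.3 CPM in TCam-2 and 33.7 CPM in NTera2. Of 13 SERPINB genes, 7 reached 1 CPM in TCam-2 and 3 in NTera2.

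**Figure D3:**
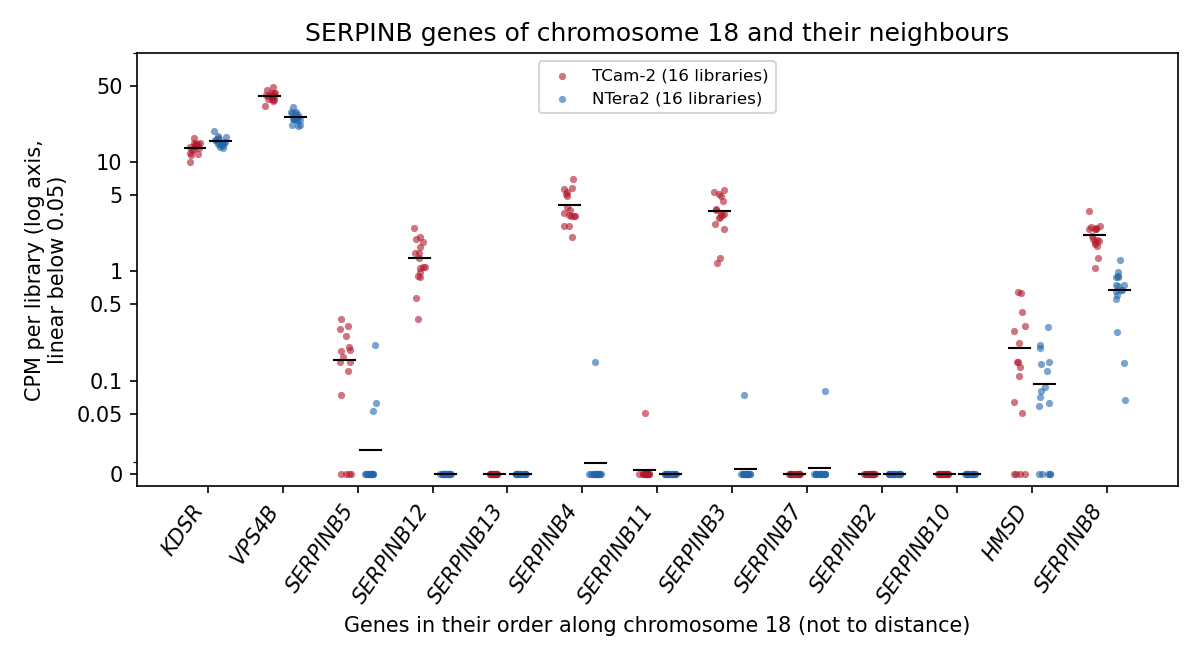
CPM of the SERPINB genes of chromosome 18 and of 3 neighbours, in gene order, on a log axis that is linear below 0.05. Each point is 1 library, red for TCam-2 (16) and blue for NTera2 (16), and bars are means. SERPINB12, SERPINB4 and SERPINB3 have counts in every TCam-2 library at low levels (0.371 to 7.0 CPM), beside genes near 0 in both lines. KDSR and VPS4B stand higher and are expressed in both.

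Near-identical copies limit what can be said of single genes in this run. Of all stretches of 52 bases, the read length, in the longest GENCODE 29 transcript of SERPINB3, 52.0% also occur in transcripts of other genes, and 23% do for SERPINB4. SERPINB3 overlaps SERPINB11, so part of that share is overlap rather than likeness. Among 111 members with a transcript, 56 shared no such stretch and 77 shared under 5%. At or above 50% stood SERPINB3, CSH2 (62.4%) and LOC440896 (87.3%), whose levels are uncertain. Moreover 37 of the 112 overlap a gene on the other strand, among them EVX1-AS with EVX1, and the strand setting of the counting is not given in the sources used here. Keratinocyte markers, set beside the serpins, summed to 8.49 to 14.3 CPM in TCam-2 and 10.9 to 16.1 CPM in NTera2 libraries. KRT10 averaged 5.73 CPM in TCam-2 and 12.9 CPM in NTera2. KRT5 and KRT14 had 1 and 7 counts over TCam-2 and 0 over NTera2, while TP63 averaged 5.35 CPM in TCam-2 and 0.223 CPM in NTera2. Whether these move with the serpins was not tested.

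Among pairs of neighbours, GSTA2 and GSTA1 encode alpha class glutathione transferases, which detoxify lipid peroxidation products. GSTA2 ranged from 8.42 to 16.1 CPM in TCam-2 with 2 counts over NTera2, and GSTA1 from 0.399 to 2.17 CPM with 0. GSTA3, in the same cluster, averaged 66.8 CPM in TCam-2 and lay just outside the limit with 5 NTera2 counts, and GSTA4 averaged 146 CPM in TCam-2 and 31.2 CPM in NTera2. GSTA1 and GSTA2 share 26.9% and 17.6% of their 52-base stretches with other genes. DSCR4 and DSCR8 of chromosome 21 averaged 1.21 and 8.69 CPM in TCam-2, against 0 and 3 counts over NTera2. KCNJ15 beside them, at 4.18 CPM, had 5 counts. OOEP and DDX43 overlap on chromosome 6; OOEP, an oocyte protein of the maternal complex, averaged 1.46 CPM and DDX43, an RNA helicase of testis and tumours, 7.66 CPM, with 0 counts in NTera2. The other pairs were PDX1 with CDX2, NKX2-1 with PAX9, and MNX1 with MNX1-AS1. Over the whole set, 14 members (12.5%) had a gene of at least 1 CPM in NTera2 on both sides, against 38.8% of the other 12690 genes, and 43.8% had none on either side, against 16.7%. The same held of expression in TCam-2: 15.2% had a gene of at least 1 CPM there on both sides, against 35.3%, and 35.7% had none, against 19.1%. A flanking gene that is itself a member is silent in NTera2 by the rule, and such genes were not left out. Part of the NTera2 contrast was therefore fixed in advance, as 11 members lay in runs or pairs with no other gene between them. By chromosome, the members were 2.82% of the genes past the TCam-2 threshold on 13 (6 members), 2.76% on 18 (5) and 2.57% on 7 (15). They were 2.33% on 21 (3), 1.81% on 5 (11), 1.68% on 8 (8) and 1.48% on 11 (11), against 0.875% over all. The 3 serpins are among the 5 of chromosome 18. On chromosome 3 they were 0 of 715.

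Genes of the germ line and oocyte formed a group of 9, sorted by known role after their values were seen, with means of 1.01 to 29.1 CPM in TCam-2 and 4 of them at 0 counts in NTera2. Beside DPEP3, RBMXL2, DDX43 and OOEP it held RNF17, a tudor domain protein of spermatids in the mouse, at 6.72 to 14.4 CPM in TCam-2 and no count in NTera2. RBM46, needed for meiosis in mouse germ cells, ranged from 0.691 to 3.4 CPM with 2 NTera2 counts, and INSL6, an insulin-like peptide of testis, from 1.10 to 4.64 CPM with 1. C2CD6 averaged 2.78 CPM and H3Y1, a histone H3 variant, 1.01 CPM. On a wider list of 36 germ line and piRNA genes, 2 were members, 11 reached 1 CPM in TCam-2 and 9 in NTera2. TDRD9, of the piRNA pathway, averaged 17.2 CPM in TCam-2 and missed the limit with 5 NTera2 counts, and PIWIL2 went the other way, at 0.0690 CPM in TCam-2 and 110 CPM in NTera2.

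Antioxidant and detoxifying enzymes, sorted by hand like the groups that follow and with no count over all genes to set beside them, were 6. CAT, the catalase that breaks down hydrogen peroxide, had 19.4, 22.7 and 24.3 CPM in its lowest, median and highest TCam-2 library, 5447 counts in all, against 1 over NTera2. ABTB2 on one side of it averaged 15.4 CPM in TCam-2 and 23.4 CPM in NTera2, and ELF5 on the other had 19 counts over TCam-2 and 1 over NTera2. RNLS, a flavin-dependent oxidase, averaged 13.1 CPM against 1 count, PON3, a lactonase, 5.16 CPM against 0, and ALDH3B2, an aldehyde dehydrogenase, 6.35 CPM against 4. With GSTA1 and GSTA2 they ranged from 0.903 to 9.25 CPM per kb.

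Genes known from placenta and trophoblast were also 6. VGLL1, a TEAD cofactor, had 7.79, 11.5 and 16.8 CPM in its lowest, median and highest TCam-2 library against 1 count over NTera2. HAND1, a helix-loop-helix factor of heart and trophoblast, ranged from 6.64 to 12.3 CPM against 1 count. CSH2, a placental lactogen, averaged 1.65 CPM and LVRN, an aminopeptidase of trophoblast, 3.20 CPM, with ESX1 and DSCR4 making up the group.

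Epithelial and mucosal genes, the 3 serpins among them, were 9. S100A6, a calcium-binding protein, ranged from 5.76 to 10.7 CPM in TCam-2 against 3 NTera2 counts, and DEFB1, an antimicrobial peptide of epithelia, from 1.56 to 4.38 CPM against 1. CCL28, a mucosal chemokine, averaged 4.24 CPM and MUC15, a membrane mucin, 3.79 CPM, both with 0 NTera2 counts. VSIG2 averaged 3.71 CPM against 2 counts and MIR200CHG 3.24 CPM against 4. The miR-200 RNAs printed above are known for keeping epithelial cells from mesenchymal change.

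Genes of nuclear, chromatin and cell division proteins were 11. FAM111B, a nuclear protease, averaged 29.8 CPM, and TSPYL5, a nucleosome assembly relative, 32 CPM, against 1 and 3 NTera2 counts. CHMP4C, an ESCRT protein of the abscission checkpoint, ranged from 13.6 to 24.3 CPM against 1 count. OBI1, a ubiquitin ligase of replication origins, averaged 7.79 CPM against 0 counts. The zinc finger genes were ZNF707 (27.6 CPM against 2 counts), ZNF311 (5.26 CPM against 0) and ZNF727 (6.47 CPM against 1). KDM4E, a histone demethylase, averaged 1.38 CPM, and the histone H3 genes H3C6 and H3-2 2.65 and 2.14 CPM.

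Ligands, receptors and surface proteins were 7, from 0.123 to 1.05 CPM per kb. WNT6, a secreted ligand, averaged 1.81 CPM, EDNRB, an endothelin receptor, 1.90 CPM, and KLB, the co-receptor of endocrine FGFs, 1.22 CPM. GRIA2, a glutamate receptor subunit, averaged 7.01 CPM, CNTN5, a neural adhesion molecule, 2.51 CPM, CD36, a fatty acid receptor, 1.34 CPM and KLRD1, a natural killer receptor chain, 3.07 CPM. Leukocyte markers beside KLRD1, CD36 and IGLV7-46 summed to 1.37 to 3.57 CPM in TCam-2 and 0 to 1.35 CPM in NTera2 libraries. ITGAM averaged 1.56 CPM in TCam-2 and 0.440 CPM in NTera2, PTPRC had 1 count over TCam-2 and 0 over NTera2, and CD3E had 0 and 6. Their part in the levels of these members was not tested. Further metabolic enzymes were sorted by hand, apart from the class of gene names above. These were G6PC1, the glucose-6-phosphatase of liver, at 4.89 CPM against 1 count, and DPYS of pyrimidine breakdown at 1.56 CPM. With them stood NHLRC1 (malin), a ubiquitin ligase that acts on glycogen metabolism, at 2.62 CPM.

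The 30 non-coding genes averaged 1.02 to 21.9 CPM in TCam-2, 8 of them had no count in NTera2, and 13 overlap a gene on the other strand. LINC00221 was at 18.6 to 25.1 CPM against 2 counts, LINC01446 averaged 14.3 CPM against 1, LOC101926892 6.70 CPM against 2, LINC01716 2.13 CPM against 0, and UCA1, a long RNA first described in bladder cancer, 2.41 CPM against 1. These groups overlap, since MIR200CHG and DSCR4 are also non-coding, H3-2 is typed as a non-coding transcript in GENCODE 29, and ESX1 is a homeobox gene. The last 17 genes, in none of these groups, averaged 1.49 to 7.24 CPM. They include IGLV7-46, an immunoglobulin lambda segment, at 7.11 CPM per kb, C5orf46 at 3.63 CPM per kb, and MAP10, a microtubule-associated protein, at 1.6 CPM per kb, as well as PTPN20, a tyrosine phosphatase, at 1.94 CPM and CARD18, a caspase regulator, at 1.71 CPM.

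At the TCam-2 threshold, H3Y1 (1.01 CPM), LOC440896 (1.02) and LINC00461 (1.06) lay just inside and RXFP1 (0.991), LINC01793 (0.981) and C1GALT1C1L (0.975) just outside. At the NTera2 limit, RBMXL2, EVX1 and LINC02864 with 4 counts lay just inside, at 28.7, 11.8 and 11.4 CPM in TCam-2. GSTA3, TDRD9 and FAM221A with 5 counts lay just outside, at 66.8, 17.2 and 11.7 CPM. Genes thus lay on both sides of each threshold without a gap.

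**Figure D4:**
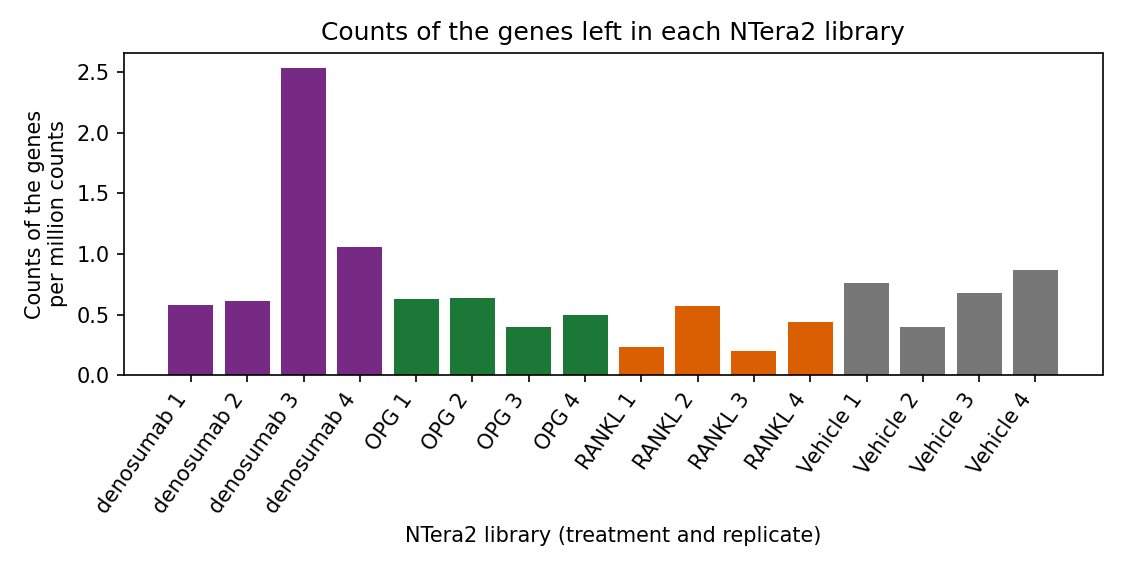
Summed CPM of the 112 genes in each of the 16 NTera2 libraries, coloured by treatment. Denosumab replicate 3 stands at 2.53, and the other 15 lie between 0.199 and 1.06.

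Whether RANKL, OPG or denosumab moved these genes was tested in TCam-2 alone, since 4 counts or fewer leave nothing to test in NTera2. The 16 TCam-2 libraries were fitted together with edgeR's quasi-likelihood test over 16621 genes, with Benjamini-Hochberg adjustment, and all 112 members were among the genes tested. None of the 112 passed an adjusted p of 0.05 for denosumab, OPG or RANKL against vehicle, and over all genes 0 (0%) passed in each comparison. At an unadjusted p under 0.05 there were 3 members for denosumab (2.68%, against 6.56% of all genes), 6 for OPG (5.36%, against 8.68%) and 8 for RANKL (7.14%, against 8.92%). DESeq2 called 0 members in each comparison as well, and over all genes 0 (0%) for denosumab, 7 (0.0421%) for OPG and 1 (0.00602%) for RANKL. The median log2 fold change over the 112 was 0.01 for denosumab, -0.03 for OPG and 0.05 for RANKL, beside -0.01 over all genes in each. The smallest adjusted p of a member was 0.731 for denosumab, 0.488 for OPG and 0.557 for RANKL. The 3 comparisons share the same 4 vehicle libraries.

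Members with the smallest p-values are given as values. FAM111B had 35.3, 30.8, 36.0 and 41.2 CPM with denosumab and 34.8, 23.1, 24.4 and 19.9 CPM with vehicle (replicates 1 to 4). The groups overlap through vehicle replicate 1, and the log2 fold change was 0.48 (SE 0.16, edgeR adjusted p = 0.731). TLX3 had 3.32, 3.20, 6.66 and 5.05 CPM with RANKL, 4.65, 3.26, 5.43 and 6.66 CPM with OPG, and 5.93, 6.04, 6.93 and 12.2 CPM with vehicle. Both treated groups overlap the vehicle group, and the log2 fold changes were -0.78 with RANKL (SE 0.26, edgeR adjusted p = 0.557) and -0.63 with OPG (SE 0.26, edgeR adjusted p = 0.544). Vehicle replicate 4 weighed on both; without it they were -0.45 and -0.30. HOXC6 averaged 1.99 ± 0.83 CPM with OPG and 3.36 ± 0.73 CPM with vehicle (SD, n = 4 each), with a log2 fold change of -0.78 and an edgeR adjusted p of 0.488. MAP10 averaged 8.36 ± 2.14 CPM with RANKL and 5.69 ± 1.58 CPM with vehicle (SD, n = 4 each), with a log2 fold change of 0.53 and an edgeR adjusted p of 0.557. SERPINB12, of the chromosome 18 run, averaged 1.83 ± 0.63 CPM with RANKL and 0.96 ± 0.46 CPM with vehicle (SD, n = 4 each), with a log2 fold change of 0.89 and an edgeR adjusted p of 0.559.

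The same 16 libraries allowed a test of differences between the 4 passages, with treatment as a covariate. Each passage is also 1 experiment, so passage and experiment cannot be told apart, and its 4 libraries share that experiment. edgeR called 294 of 16621 genes (1.77%) and 0 of the 112 members. The number over all genes turned on single libraries: it was 90 without OPG replicate 1, 114 without vehicle replicate 1, 117 without RANKL replicate 1, 189 without denosumab replicate 3, 502 without OPG replicate 2 and 845 without vehicle replicate 4. At an unadjusted p under 0.05 there were 20 members (17.9%, against 14.4% of all genes). CDX2 came closest. It averaged 2.10 ± 0.133 CPM at passage 118, 3.66 ± 0.707 at passage 120, 3.82 ± 0.607 at passage 121 and 4.41 ± 1.21 at passage 122 (SD, n = 4 each; edgeR adjusted p = 0.0704). All 4 libraries of passage 118, between 1.92 and 2.24 CPM, lay below the other 12, whose lowest was 2.77 CPM. G6PC1 averaged 3.87 ± 0.483, 4.02 ± 1.16, 5.13 ± 0.851 and 6.54 ± 0.988 CPM at the 4 passages in order (edgeR adjusted p = 0.0988). Its libraries of passage 122, from 5.32 CPM upward, lay above those of passage 118, up to 4.43 CPM, and overlapped the other passages. DESeq2 called CDX2 (adjusted p = 0.0149) and G6PC1 (adjusted p = 0.0285) among 727 genes (4.37%), as the closing section sets out. SERPINB3 averaged 3.38 CPM at passage 118 and 4.75 CPM at passage 122, and SERPINB4 3.15 and 5.60 CPM, with edgeR adjusted p of 0.312 and 0.220. CDX1 averaged 4.11 ± 0.389 CPM at passage 118 and 6.49 ± 0.674 CPM at passage 122 (SD, n = 4 each; edgeR adjusted p = 0.211), without overlap between these passages. MUC15 had its highest mean at the first of these passages, with 5.09 ± 1.06 CPM at passage 118, 2.82 ± 0.415 at passage 120, 3.30 ± 1.11 at passage 121 and 3.97 ± 0.665 at passage 122 (SD, n = 4 each; edgeR adjusted p = 0.140).

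**Figure D5:**
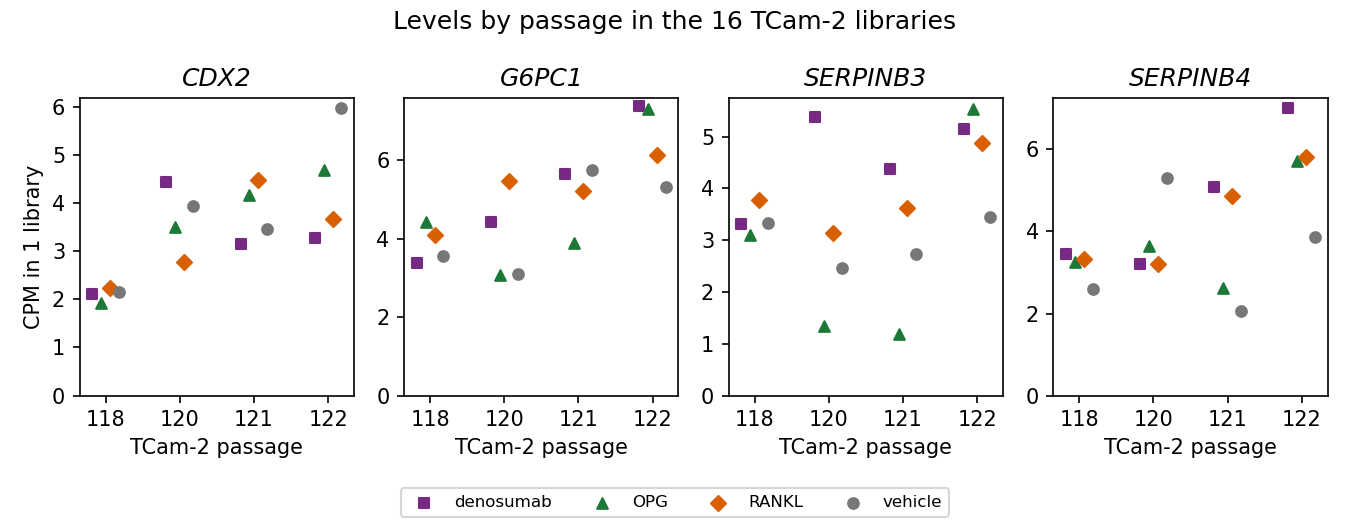
CPM of CDX2, G6PC1, SERPINB3 and SERPINB4 in the 16 TCam-2 libraries by passage, with a symbol for each treatment and axes from 0. The 4 libraries of passage 118 lie lowest for CDX2, and passage 122 lies above passage 118 for G6PC1.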

How the data were processed

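Polyadenylated RNA of 16 TCam-2 and 16 NTera2 libraries was sequenced as stranded, paired 52-base reads, per the labels' protocols. Per the submitters' processing notes, the authors used bcl2fastq 2.20.0, STAR 2.7.9a and featureCounts 1.6.2 with GRCh38/hg38. The deposited values are raw counts per gene; the start, end and length columns hold another kind of value, in bases, per the file headers. Annotation release and strand setting are not given in the sources used here. All columns were matched to samples by their titles, and 0 were left over. The members and gene lists were chosen with earlier results of these data known, and genes were named by rule: the 15 highest per kb, runs of 3 or more, all SERPINB genes, the 4 highest of each class of gene names, those nearest each threshold and line markers. Other named genes were chosen after their values were seen. CPM used column sums. Tests used R 4.3.3 and edgeR 4.0.16 (filterByExpr by group, TMM, robust quasi-likelihood F test; an adjusted p under 0.05 was a call), and were tested on simulated data; each SE is the size of a log2 fold change divided by the square root of F. DESeq2 1.42.0, other size factors, no filter, a replicate block, other libraries and leaving out each library were tried. The counts of replicate libraries differed beyond sampling error in each pair (chi-square per degree of freedom 2.57 to 17.5). A replicate number marks a shared passage in the labels; same-numbered libraries correlated between -0.0561 and 0.167 in their deviations from the group means, so the block was kept as an alternative. In the treatment tests the 4 experiments of each group set the spread behind the p-values. In the passage test the 4 libraries of each passage set it. Each passage is a single experiment, so those p-values do not measure the spread between experiments. Both tests also borrow from the spread of the other genes tested. Some genes and the results that need them are not reported here.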

Additional observations from a re-analysis of the deposited data

Results flagged for a closer look

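In 23 genes whose values are given by group, 92 groups of 4 TCam-2 libraries were searched for a single library far from the other 3. In all 3 were found, no more than chance gives at about 1 in 20 groups. TLX3 stood at 12.2 CPM in vehicle replicate 4, against 5.93 to 6.93 CPM in the other vehicle libraries. Without that library its log2 fold change was -0.45 with RANKL (edgeR adjusted p = 0.957) and -0.30 with OPG (edgeR adjusted p = 0.853), and with denosumab it was 0.19 in place of -0.14. FAM111B stood at 20.2 CPM in RANKL replicate 2, a library with low RNA integrity, against 34.3 to 35.1 CPM in the other RANKL libraries. Without it the log2 fold change with RANKL was 0.43 in place of 0.27 (edgeR adjusted p = 0.195 and 0.581). GSTA2 stood at 8.42 CPM in denosumab replicate 4, against 10.5 to 10.9 CPM in the other denosumab libraries.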

How the results depend on the processing

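The count of members moved with the thresholds: 39 genes had 0 counts in NTera2, and 198 had at most 16. The other settings gave 79 (at least 2 CPM) to 162 (at least 0.5 CPM), and 128 to 135 when 1 replicate number was left out. Without NTera2 denosumab replicate 3, chosen after seeing the data, there were 116. There were 4 runs also with a smaller or larger limit on the gap, and 1 when no other gene could lie between members. In the treatment comparisons 0 members were called under each alternative except 1 for denosumab with no filter on low counts, which was FAM111B (edgeR adjusted p = 0.0289; the cause was not tested). Between passages, 2 members (CDX2 and G6PC1) were called with no filter and 2 by DESeq2, and the cause was not tested. Over all genes the passage count was 294, against 750 with no filter, 727 by DESeq2, 173 with no treatment term and 140 without the low-integrity libraries; with no filter, the treatment counts were 28 for denosumab, 54 for OPG and 51 for RANKL in place of 0, and the block gave 2 for denosumab. Over 22 settings the adjusted p of CDX2 ranged from 0.0149 to 0.295 and that of G6PC1 from 0.0285 to 0.303. Leaving out any single library gave 0 to 0 members called in each comparison. The replicate block, which pairs the libraries of a passage, gave 0 members for denosumab, OPG and RANKL, with or without the low-integrity libraries, and changed no call among the members.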

Other observations

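ZNF707 and OBI1, picked by hand, had genes expressed in both lines beside them or on the same chromosome arm. Over the whole set, only 12.5% of members had a gene of at least 1 CPM in NTera2 on both sides, against 38.8% of the other genes. ZNF707 had 2 counts beside ZNF623, which averaged 55.3 CPM in TCam-2 and 35.1 CPM in NTera2. OBI1 had 0 counts, and RBM26 on the same arm averaged 40.3 CPM in TCam-2 and 81.8 CPM in NTera2.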
